A study of Mus musculus with 10 samples.

Results

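Cholesterol is built from acetyl units through the mevalonate pathway. Of the 7 genes described here, all but Insig1 mark successive points along it. Hmgcs1 encodes the synthase that makes HMG-CoA, Idi1 the isomerase that makes the activated isoprene unit, Fdps the synthase that joins isoprene units into farnesyl diphosphate, Fdft1 squalene synthase, Sqle squalene epoxidase and Lss lanosterol synthase. Insig1 encodes a protein of the endoplasmic reticulum that holds back the pathway's activators. The genes were chosen by name as sterol synthesis genes and targets of SREBP, with earlier results of these data known. Counts of called genes below are therefore descriptions. All 7 genes were found among 35427 genes with reads summed over their transcripts.

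Male mouse embryonic stem cell (ESC) lines of C57BL/6 background were compared, 4 Tdg-/-, 3 Tdg+/- and 3 Tdg+/+ lines, each sequenced as 1 library. ESCs are cells of the early embryo that keep dividing in culture and can form all body tissues, and Tdg encodes thymine-DNA glycosylase, which removes oxidized cytosines from DNA. All 10 lines came from matings between Tdg+/- parents, were started on feeder cells and were later kept without serum or feeders in a medium with inhibitors of differentiation. No label says which mating gave which line, so the p-values measure only how the lines spread. Which part of Tdg was deleted is not given in the sources used here, and the lines carry no other labelled alteration or treatment.

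SREBP proteins are transcription factors anchored in the endoplasmic reticulum. When membrane sterol falls, their escort SCAP carries them to the Golgi, where proteases release the active part, and INSIG proteins keep the complex back when sterol is plentiful. SREBP2, encoded by Srebf2, acts mainly on sterol genes and SREBP1, encoded by Srebf1, acts also on fatty acid genes. Pluripotent cells divide fast and make much of their own membrane lipid.

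The libraries held 31095285 to 39916039 reads in genes. CPM (counts scaled to a fixed total of reads in genes) below are scaled by TMM normalization, which corrects library sizes for composition. Tdg itself was at 7.76, 10.6, 10.3 and 8.50 CPM in the Tdg-/- lines, at 40.4, 41.9 and 45.9 CPM in the Tdg+/- lines and at 86.5, 91.2 and 93.2 CPM in the Tdg+/+ lines. The Tdg level thus followed the number of wild-type alleles in the labels, without overlap between genotypes. The Tdg-/- lines still had 257 to 384 reads of Tdg, and the origin of these reads was not tested. The log2 fold change of Tdg was -3.26 for Tdg-/- over Tdg+/+ (SE 0.14, adjusted p = 9.985e-06 from edgeR's quasi-likelihood test). It was -1.09 for Tdg+/- over Tdg+/+ (SE 0.11, adjusted p = 0.0371 from the same test). The Tdg+/- call was lost in 4 of 6 fits with 1 line left out (edgeR adjusted p up to 0.159), at fold changes of -1.14 to -1.03. A transcript length offset also ended it (edgeR adjusted p = 0.076). Of the Tdg-/- lines, line 1 stood apart from its genotype, with a median absolute log2 deviation of 0.237 over genes, against 0.0729 to 0.127 in the other Tdg-/- lines. All 7 markers of embryonic stem cells were above 0 CPM in every line and summed to 3554 to 3899 CPM in Tdg-/-, 3482 to 3791 CPM in Tdg+/- and 3369 to 3734 CPM in Tdg+/+ lines. The 8 feeder fibroblast markers were also above 0 in every line, with sums of 15.4 to 43.1, 8.57 to 61.2 and 26.2 to 54.6 CPM in the same order of genotypes. The 6 primitive endoderm markers summed to 2.09 to 3.73 CPM over all lines, with at most 1 marker at 0, and the 6 markers of primed and early lineage cells to 10.1 to 17.1 CPM with none at 0.

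The promoters are shown first because SREBP acts there. RefSeq promoter windows were found for 4 of the 7 genes (build GRCm38.p6), and the 250 bases before the annotated start are printed 5′ to 3′ on the gene's strand, which is the plus strand for each. Capitals mark matches, on either strand, to a sterol regulatory element (TCACNCCAC), an E-box (CACGTG), an NF-Y box (CCAAT) and an Sp1 box (GGGCGG). No match overlapped another in these windows. All 4 windows found are given, whatever the result of the gene. Of these genes, Hmgcs1 and Idi1 were higher in Tdg-/- than in Tdg+/- lines, and Lss and Insig1 had fold changes near 0. The windows lie at chr13:119690101-119690350 for Hmgcs1, chr13:8885356-8885605 for Idi1, chr10:76531355-76531604 for Lss and chr5:28071162-28071411 for Insig1.
Hmgcs1: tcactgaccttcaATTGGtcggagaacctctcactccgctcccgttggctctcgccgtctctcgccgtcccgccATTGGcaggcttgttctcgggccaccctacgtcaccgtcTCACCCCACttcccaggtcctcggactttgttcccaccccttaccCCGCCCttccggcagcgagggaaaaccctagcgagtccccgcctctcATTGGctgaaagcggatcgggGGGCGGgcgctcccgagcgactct
Idi1: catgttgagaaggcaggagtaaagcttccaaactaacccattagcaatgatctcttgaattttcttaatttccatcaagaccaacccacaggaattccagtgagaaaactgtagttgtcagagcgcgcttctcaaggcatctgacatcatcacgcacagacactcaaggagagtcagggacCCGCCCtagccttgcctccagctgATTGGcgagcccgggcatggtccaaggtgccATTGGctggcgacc
Lss: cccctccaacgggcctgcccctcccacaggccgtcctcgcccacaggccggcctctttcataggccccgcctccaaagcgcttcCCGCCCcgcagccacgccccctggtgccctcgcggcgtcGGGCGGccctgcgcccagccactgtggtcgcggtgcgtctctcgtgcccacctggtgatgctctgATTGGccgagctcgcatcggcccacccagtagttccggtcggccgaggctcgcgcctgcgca
Insig1: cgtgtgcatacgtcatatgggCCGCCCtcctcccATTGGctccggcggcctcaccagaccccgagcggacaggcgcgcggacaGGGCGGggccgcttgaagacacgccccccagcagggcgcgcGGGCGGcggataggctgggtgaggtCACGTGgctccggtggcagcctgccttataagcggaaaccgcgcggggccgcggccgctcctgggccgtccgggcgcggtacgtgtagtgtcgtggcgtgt

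Hmgcs1 was the only one of these 4 windows with a sterol regulatory element, which lay 137 to 129 bases before the start, between NF-Y boxes at 176 to 172 and 45 to 41 bases before it. That element occurred in 1.05% of 32851 promoter windows of the same length, against 6.02% for the E-box, 33.8% for the NF-Y box and 32.7% for the Sp1 box. The Insig1 window held the only E-box of the 4, 101 to 96 bases before the start, and 3 Sp1 boxes. The Idi1 window held 2 NF-Y boxes and 1 Sp1 box, and the Lss window 1 NF-Y box and 2 Sp1 boxes. A match describes letters in these windows, and windows without one carry no statement about a factor. The Fdps, Fdft1 and Sqle promoters are named only.

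Per transcript length, Insig1, Fdps and Hmgcs1 were the most abundant of the genes and Idi1 had the lowest mean. The authors' TPM (reads divided by effective transcript length and scaled to a fixed total) averaged 172 ± 20.9 for Insig1, 159 ± 39.8 for Fdps, 154 ± 31.3 for Hmgcs1 and 97.2 ± 11.1 for Fdft1 (SD, n = 10 lines). Sqle followed with 42.2 ± 8.24, Lss with 15.9 ± 4.46 and Idi1 with 9.53 ± 3.47 TPM. The first 3 could not be ordered, since Insig1 was above Fdps in 8 of 10 lines and above Hmgcs1 in 6 of 10, and Fdps was above Hmgcs1 in 4 of 10. Fdft1 lay below all 3 and above Sqle in 10 of 10 lines, Sqle lay above Lss in 10 of 10, and Lss lay above Idi1 in 9 of 10 lines. The ladder from squalene synthase down to lanosterol synthase thus held in each line, while Idi1, with 231 to 494 reads per line, was the most thinly counted gene. Its paralogue Idi2 had 0 to 2 estimated reads per line. These are counts after Salmon had assigned shared reads, so how many Idi1 reads also match other sequences was not tested.

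Most of the genes varied little over the 10 lines, and Hmgcs1 and Idi1 varied most. The SD of log2 CPM over all lines was 0.08 for Insig1, 0.11 for Fdft1 and 0.14 for Sqle, and 0.789%, 3.81% and 9.76% of 9636 genes at 5 CPM or more on average spread less than these. Lss (SD 0.18) and Fdps (0.21) also lay under the median gene (0.25). Hmgcs1 (0.35) and Idi1 (0.37) spread more than 80.7% and 84.4% of those genes.

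Hmgcs1, the first of the 7 in pathway order, was lowest in the Tdg+/- lines. Its CPM were 625, 594, 567 and 522 in the Tdg-/- lines, 328, 305 and 453 in the Tdg+/- lines, and 498, 567 and 531 in the Tdg+/+ lines. All Tdg+/- lines lay below all lines of the other genotypes, although Tdg+/- line 3 was much closer to them than lines 1 and 2, and the Tdg-/- and Tdg+/+ lines overlapped. In TPM it was at 207, 151, 149 and 133 in the Tdg-/- lines, at 114, 105 and 167 in the Tdg+/- lines, and at 167.1, 188 and 158 in the Tdg+/+ lines, so on that scale Tdg+/- line 3 lay above 3 Tdg-/- lines and 1 Tdg+/+ line. The mean CPM was 577 ± 43.5 in Tdg-/- (SD, n = 4), 362 ± 79.4 in Tdg+/- (n = 3) and 532 ± 34.7 in Tdg+/+ lines (n = 3).

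Idi1, which acts further down the same branch, was also low in Tdg+/- lines but with wide spread in the wild type. It had 11.4, 9.60, 11.9 and 9.54 CPM in the Tdg-/- lines, 6.91, 7.32 and 7.64 CPM in the Tdg+/- lines, and 7.26, 9.62 and 15.5 CPM in the Tdg+/+ lines. The Tdg+/- lines lay below all Tdg-/- lines, whereas Tdg+/+ line 1 fell among the Tdg+/- values and Tdg+/+ line 3 was the highest of the 10. In TPM, at 13.7, 8.39, 10.5 and 7.05 in the Tdg-/- lines, 5.07, 8.003 and 9.26 in the Tdg+/- lines, and 6.37, 10.4 and 16.5 in the Tdg+/+ lines, all 3 genotypes overlapped. The mean CPM were 10.6 ± 1.21 in Tdg-/-, 7.29 ± 0.364 in Tdg+/- and 10.8 ± 4.25 CPM in Tdg+/+ lines.

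**Figure D1:**
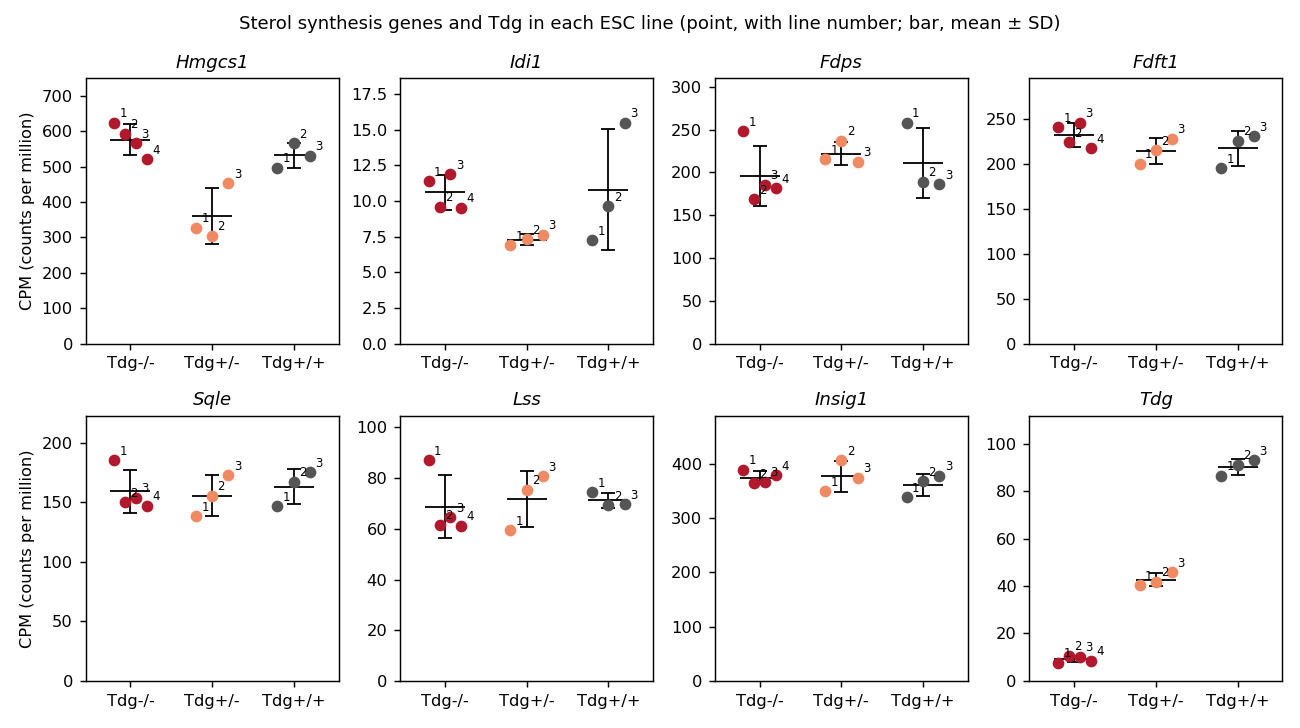
CPM (vertical axes, from 0) of the 7 genes and Tdg in each Tdg-/-, Tdg+/- and Tdg+/+ line, with the line number beside each point and the mean ± SD as a bar. Hmgcs1 was at 305 to 453 CPM in the 3 Tdg+/- lines, below the other 7 lines, while the genotypes overlapped for Fdps, Fdft1, Sqle, Lss and Insig1.

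Fdps, whose product feeds both sterols and protein prenylation, did not separate the genotypes. It had 248, 169, 186 and 182 CPM in the Tdg-/- lines, 216, 237 and 213 CPM in the Tdg+/- lines, and 258, 189 and 186 CPM in the Tdg+/+ lines. Line 1 was the highest of its genotype both in Tdg-/- and in Tdg+/+.

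Fdft1, which commits farnesyl diphosphate to sterols, was nearly even over the lines. It had 241, 224, 246 and 218 CPM in the Tdg-/- lines, 200, 215 and 228 CPM in the Tdg+/- lines, and 195, 226 and 231 CPM in the Tdg+/+ lines. Its highest line was only 1.26 times its lowest. Sqle, an oxygen-dependent and rate-limiting step, had 185, 150, 154 and 147 CPM in the Tdg-/- lines, 138, 155 and 173 CPM in the Tdg+/- lines, and 147, 167 and 175 CPM in the Tdg+/+ lines. The ranges of the 3 genotypes overlapped, with Tdg-/- line 1 highest.

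Lss, which closes the ring system and lies on chromosome 10 as Tdg does, had 87.2, 61.7, 64.7 and 61.2 CPM in the Tdg-/- lines, 59.4, 75.4 and 80.7 CPM in the Tdg+/- lines, and 74.5, 69.4 and 69.8 CPM in the Tdg+/+ lines. Tdg-/- line 1 stood above the other Tdg-/- lines, which lay below all Tdg+/+ lines. Insig1 had 389, 364, 367 and 379 CPM in the Tdg-/- lines, 350, 407 and 375 CPM in the Tdg+/- lines, and 338, 368 and 378 CPM in the Tdg+/+ lines. Its values overlapped between all 3 genotypes.

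Only in Tdg-/- against Tdg+/- lines did any of the 7 genes pass an adjusted p of 0.05 in edgeR without surrogate variables and with every line. These genotypes differ in the remaining wild-type allele, and their lines also differed over chromosome 11 (median -0.38, given below). Hmgcs1 rose by 0.67 on the log2 scale in Tdg-/- relative to Tdg+/- lines (SE 0.15, 95% interval 0.34 to 1.01, adjusted p = 0.0342 from edgeR's quasi-likelihood test with Benjamini-Hochberg adjustment over 13962 genes). Idi1 rose by 0.54 (SE 0.14, 95% interval 0.23 to 0.85, adjusted p = 0.0460). The count of 2 of 7 genes called stands beside 9.03% of all genes called in this comparison, 3.52% of them higher and 5.51% lower as shares of all genes tested. For both genes the 4 Tdg-/- lines did not overlap the 3 Tdg+/- lines in CPM, a separation in this direction that 11.4% of all genes showed, but in TPM they overlapped for both. Both calls were lost when any single line other than Tdg-/- line 1 was left out, with edgeR adjusted p of 0.0570 to 0.1335 for Hmgcs1 and 0.0651 to 0.1509 for Idi1, while the log2 fold changes stayed at 0.58 to 0.87 and 0.48 to 0.59. Without Tdg-/- line 1, Hmgcs1 (0.63, adjusted p = 0.0100) and Idi1 (0.50, adjusted p = 0.0169) were still called, and Fdps was also called, at -0.31 (adjusted p = 0.0194), beside 40.6% of all genes. Over all genes the count of calls, 1261 with every line, was 5659 without Tdg-/- line 1, 12 to 22 without any one of Tdg-/- lines 2, 3 and 4 or Tdg+/- lines 2 and 3, and 1535 without Tdg+/- line 1.

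The other 5 genes did not pass the test between Tdg-/- and Tdg+/- lines. Their log2 fold changes were -0.18 for Fdps (95% interval -0.49 to 0.14), 0.12 for Fdft1 (-0.11 to 0.35), 0.03 for Sqle (-0.25 to 0.31), -0.06 for Lss (-0.42 to 0.29) and -0.01 for Insig1 (-0.23 to 0.22), with adjusted p from 0.389 to 0.958. Of these intervals, that of Fdps reached furthest from 0. The median log2 fold change of the 7 genes was 0.03, against -0.02 over all genes tested. Hmgcs1 and Idi1 both lie on chromosome 13, whose 597 tested genes had a median of 0.13 (quartiles -0.16 to 0.38), and the part of that shift in their values was not tested.

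**Figure D2:**
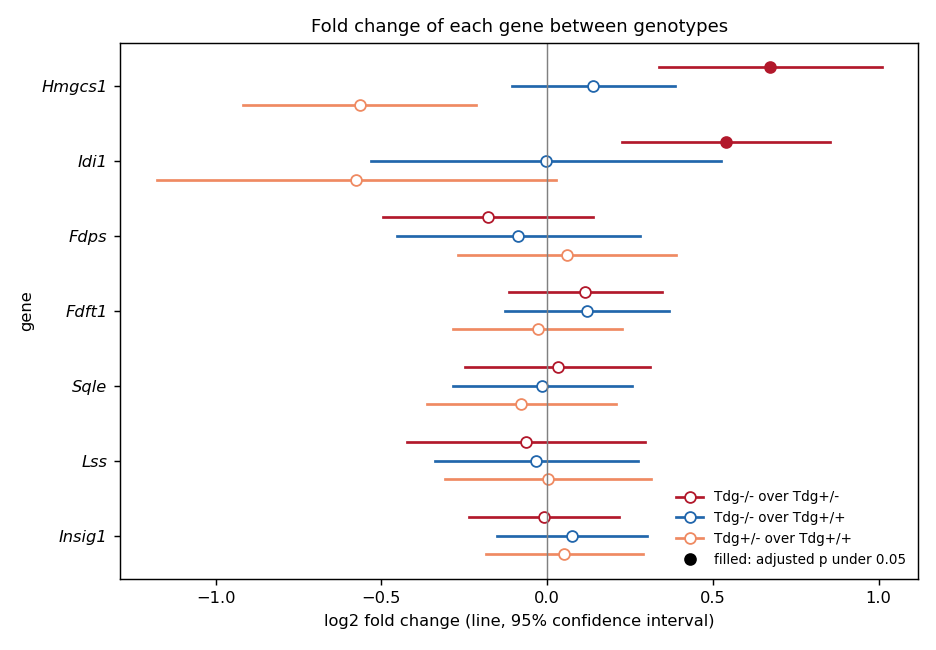
Log2 fold change (horizontal axis) of each of the 7 genes in the 3 comparisons of genotypes, with 95% confidence intervals as lines and filled points where the adjusted p was under 0.05. The only filled points are Hmgcs1 at 0.67 and Idi1 at 0.54 for Tdg-/- over Tdg+/-, and the intervals of the other 5 genes cross 0 in every comparison.

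Tdg+/- lines were compared with Tdg+/+ lines, and none of the 7 genes passed the test. Beside the loss of 1 Tdg allele, these groups differed over chromosome 11 (median 0.42, given below), and its part was not tested. Hmgcs1 had a log2 fold change of -0.57 (SE 0.15, 95% interval -0.92 to -0.21, adjusted p = 0.140 from edgeR over 13880 genes), and Idi1 one of -0.57 as well (SE 0.26, 95% interval -1.18 to 0.03, adjusted p = 0.316). The count of 0 of 7 stands beside 0.0288% of all genes called. At an unadjusted p under 0.05, 1 of 7 genes was lower, Hmgcs1, beside 7.41% of all genes lower at that level, and its 3 Tdg+/- lines lay below the 3 Tdg+/+ lines, as they did for 9.10% of all genes. DESeq2, which called 5.36% of all genes, called Hmgcs1 as the 1 member, at an adjusted p of 0.0189. So did edgeR with 3 surrogate variables as the study's methods use, which called 26.8%, at an adjusted p of 0.000671. That fit left 1 residual degree of freedom to measure the spread of lines, against 4 in the main fit. Its p-values therefore need caution. The remaining 5 genes had log2 fold changes between -0.08 (Sqle) and 0.06 (Fdps), with intervals that all lay between -0.36 and 0.39. The median of the 7 was -0.03 and that of all genes -0.02.

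In Tdg-/- compared with Tdg+/+ lines, the full loss of Tdg, none of the 7 genes was called, beside 0.0718% of all 13926 genes tested. The log2 fold changes were 0.14 for Hmgcs1 (95% interval -0.11 to 0.39, adjusted p = 0.490), -0.004 for Idi1 (-0.53 to 0.52) and 0.12 for Fdft1 (-0.13 to 0.37). Fdps was at -0.09 (-0.45 to 0.28), Sqle at -0.01 (-0.28 to 0.26), Lss at -0.03 (-0.34 to 0.27) and Insig1 at 0.07 (-0.15 to 0.30). At an unadjusted p under 0.05 the count was still 0 of 7, beside 15.9% of all genes, and DESeq2 also called 0, beside 0.668%. Without Tdg-/- line 1, when 22.1% of all genes were called, the count of the 7 was again 0. Idi1 had the widest of these intervals and Insig1 the narrowest.

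Along the number of wild-type Tdg alleles over all 10 lines, 0 of 7 genes followed a trend, beside 0.0354% of all 14105 genes. The log2 change per allele was between -0.08 (Hmgcs1) and 0.06 (Fdps), with adjusted p from 0.624 to 0.980, and 0 of 7 were past an unadjusted p of 0.05, beside 14% of all genes, or called by DESeq2, beside 0.362%. Tdg itself changed by 1.66 per allele (SE 0.12, adjusted p = 7.833e-05). The means of Hmgcs1 and Idi1 were lowest in Tdg+/-, so they did not follow the number of alleles.

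TPM and CPM gave different pictures for the Tdg-/- lines. Summed over the 7 genes, CPM was 1787, 1571, 1596 and 1517 in the Tdg-/- lines, 1297, 1403 and 1529 in the Tdg+/- lines, and 1518, 1596 and 1586 in the Tdg+/+ lines. Summed TPM was 824 in Tdg-/- line 1 and 524 to 575 in the other Tdg-/- lines, 611, 653 and 723 in the Tdg+/- lines, and 660 to 698 in the Tdg+/+ lines. Thus 3 of 4 Tdg-/- lines lay below all Tdg+/- lines in summed TPM, while in summed CPM only Tdg-/- line 4 lay below any Tdg+/- line. Sqle shows it, with 54.6, 30.6, 33.3 and 31.2 TPM in the Tdg-/- lines and 42.1, 47.6 and 47.9 TPM in the Tdg+/+ lines. Effective lengths, estimated by Salmon per transcript and averaged here per gene by TPM, differed between lines. They therefore also depend on the estimated split of reads between transcripts. For Lss they were 2916 bases in Tdg-/- line 1, 3269 to 3537 in the other Tdg-/- lines and 3477 to 3786 in the Tdg+/+ lines. For Idi1 they were 691 to 866 bases in the Tdg-/- lines, against 736 to 919 in the Tdg+/+ lines. Those of Sqle differed little, at 2870 bases in Tdg-/- line 1, 2961 to 3012 in the other Tdg-/- lines and 2812 to 2880 in the Tdg+/+ lines. The TMM factors, which enter CPM but not TPM, also differed, and a factor below 1 raises CPM. They were 0.913, 0.938 and 0.930 in Tdg-/- lines 2, 3 and 4 and 1.036 in line 1. In the Tdg+/- lines they were 1.005 to 1.052 and in the Tdg+/+ lines 1.019 to 1.047. TPM also depend on each line's total of reads over effective length, by which they are scaled, and that total is not given here. The part of each of these in the difference between TPM and CPM was not tested. When a transcript length offset entered the test of Tdg-/- against Tdg+/- lines, Hmgcs1 (0.54, adjusted p = 0.0761) and Idi1 (0.63, adjusted p = 0.120) were no longer called, beside 3.32% of all genes.

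The other enzymes of the pathway place these values. Of 13 further sterol synthesis enzymes, 1 rose and 0 fell in Tdg-/- relative to Tdg+/- lines, beside 3.52% of all genes higher and 5.51% lower, so the share is near that of all genes. The one that rose was Msmo1, the C4 sterol methyl oxidase, with 355, 344, 386 and 300 CPM in the Tdg-/- lines and 234, 202 and 199 CPM in the Tdg+/- lines, a log2 fold change of 0.71 (SE 0.12, adjusted p = 0.0241). Its Tdg+/+ lines were at 280, 273 and 322 CPM, between the other genotypes apart from Tdg+/+ line 3, which overlapped Tdg-/-. Cyp51, the lanosterol demethylase, had 0.37 (adjusted p = 0.0654), Sc5d, a desaturase, 0.33 (adjusted p = 0.0634), and Acat2, the thiolase that opens the pathway, 0.31 (adjusted p = 0.0593), none of which passed. The median of the 13 was 0.20, against -0.02 for all genes tested.

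In Tdg+/- relative to Tdg+/+ lines, 0 of the 13 enzymes passed the test. At an unadjusted p under 0.05, 5 were lower and 0 higher: Msmo1 (-0.47, adjusted p = 0.118), Hsd17b7 (-0.58, adjusted p = 0.163), Nsdhl (-0.34, adjusted p = 0.179), Cyp51 (-0.34, adjusted p = 0.183) and Sc5d (-0.33, adjusted p = 0.201). Ebp, the sterol isomerase, had 0.44, the highest value of the list. The count is 5 of 13, beside 7.41% of all genes lower at that level. The median of the 13 was -0.18, with 10 below 0. In Tdg-/- relative to Tdg+/+ lines 0 of 13 passed and the median was 0.10, with the smallest adjusted p at 0.303 for Acat2 (0.23), followed by Ebp (0.37), Msmo1 (0.27) and Hsd17b7 (-0.40). The comparisons share lines, so a low Tdg+/- level enters 2 of them with opposite sign.

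**Figure D3:**
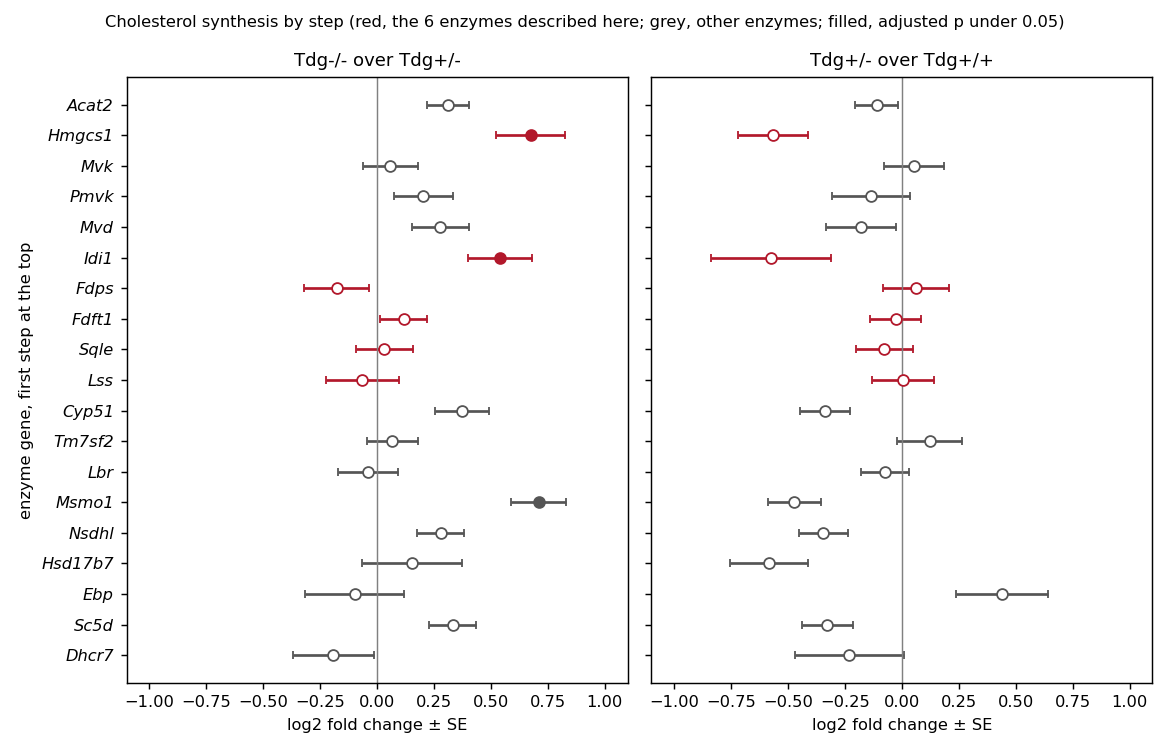
Log2 fold change ± SE (horizontal axes) of the 6 enzymes described here (red) and 13 further enzymes (grey), from the first step at the top to the last, for Tdg-/- over Tdg+/- on the left and Tdg+/- over Tdg+/+ on the right. Filled points, at an adjusted p under 0.05, are Hmgcs1 (0.67), Idi1 (0.54) and Msmo1 (0.71) on the left and none on the right, and both panels use the same Tdg+/- lines.

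None of the genes that govern SREBP was called in the direction of Hmgcs1 and Idi1. Of 10, 0 rose and 2 fell in Tdg-/- relative to Tdg+/- lines, beside 3.52% of all genes higher and 5.51% lower. Srebf1 had 61.2, 50.9, 40.6 and 45.2 CPM in the Tdg-/- lines and 80.8, 108.1 and 117 CPM in the Tdg+/- lines, with a log2 fold change of -1.04 (SE 0.17, adjusted p = 0.0241). Its Tdg+/+ lines, at 95.3, 57.9 and 46.5 CPM, overlapped both. Rnf145, a ubiquitin ligase of the sterol-sensing machinery, fell by 1.15 (SE 0.20, adjusted p = 0.0251). Srebf2, the sterol-directed SREBP, had -0.31 (adjusted p = 0.115) and Scap, the escort, -0.54 (adjusted p = 0.0853). In the 2 comparisons with Tdg+/+, 0 of 10 passed: for Tdg+/- the smallest p were those of Rnf145 (0.82, adjusted p = 0.111), Mbtps2 (-0.41, adjusted p = 0.229), Srebf1 (0.61, adjusted p = 0.283) and Mbtps1 (0.22), and for Tdg-/- those of Mbtps2 (-0.44, adjusted p = 0.295), Srebf1 (-0.41), Rnf145 (-0.30) and Marchf6 (-0.25). Mbtps1 and Mbtps2 encode the Golgi proteases that release SREBP.

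Fatty acid genes, many of them SREBP1 targets, were called in both directions. Of 15, 1 rose and 3 fell in Tdg-/- relative to Tdg+/- lines, beside 3.52% of all genes higher and 5.51% lower. Fasn, fatty acid synthase, had 252, 169, 166 and 190 CPM in the Tdg-/- lines and 294, 601 and 586 CPM in the Tdg+/- lines (log2 fold change -1.35, SE 0.24, adjusted p = 0.0256). Acly, which supplies acetyl-CoA to both pathways, fell by 0.83 (adjusted p = 0.0442) and Fads1, a desaturase, by 0.74 (adjusted p = 0.0490), while Me1, the malic enzyme that supplies NADPH, rose by 0.75 (adjusted p = 0.0241). The median of the 15 was -0.51. In Tdg+/- relative to Tdg+/+ lines 0 of 15 passed, with Fasn at 1.22 (adjusted p = 0.0967), Acly at 0.76 (adjusted p = 0.0967), Me1 at -0.52 (adjusted p = 0.188) and Fads1 at 0.38 (adjusted p = 0.276). In Tdg-/- relative to Tdg+/+ lines 0 of 15 passed, with Lpin1 (-1.12), Scd1 (-0.45), Scd2 (-0.40) and Fads1 (-0.34) at the smallest p.

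Srebf1, Rnf145, Fasn, Acly and Stard3 lie on chromosome 11, where most genes were shifted the same way. The median over its 1125 tested genes was -0.38 (log2) in Tdg-/- relative to Tdg+/- lines, with 900 below 0, and over 1119 genes it was 0.42 in Tdg+/- relative to Tdg+/+ lines, against -0.02 over all genes in each. The part of this shift in the values of those 5 genes, or in the medians of the lists that hold them, was not tested. None of the 7 sterol genes lies on chromosome 11. They lie on chromosomes 13 (Hmgcs1, Idi1), 3 (Fdps), 14 (Fdft1), 15 (Sqle), 10 (Lss) and 5 (Insig1), whose medians were between -0.05 and 0.13 in Tdg-/- relative to Tdg+/- and between -0.07 and 0.00 in Tdg+/- relative to Tdg+/+ lines.

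Sterol uptake genes gave no call. Of 7, 0 rose and 0 fell in any comparison with every line in edgeR without surrogate variables, with Stard3 (0.66, adjusted p = 0.109), Npc1 (0.43, adjusted p = 0.178), Npc2 (-0.12) and Stard4 (-0.21) at the smallest p for Tdg+/- against Tdg+/+, and Npc2 (0.31), Scarb1 (-0.31), Stard3 (0.25) and Stard4 (0.24) for Tdg-/- against Tdg+/+. In Tdg-/- relative to Tdg+/- lines 3 of 8 tested genes of the LXR and efflux list fell, beside 5.51% of all genes: Abca1, a cholesterol exporter, by 1.28 (adjusted p = 0.0310), Abcg1, another exporter, by 0.63 (adjusted p = 0.0459), and Nr1h2, which encodes LXR beta, by 0.46 (adjusted p = 0.0498). Ch25h had too few reads to be tested. For that list 0 of 8 passed against Tdg+/+. The smallest p for Tdg-/- were those of Lpcat3 (-0.69), Soat1 (-0.34), Abcg1 (-0.88) and Abca1 (-1.17). For Tdg+/- they were those of Soat1 (-0.38), Apoe (-0.34), Nr1h3 (-0.62) and Nr1h2 (0.20). The Tdg+/+ lines were uneven, with Abca1 at 2.16, 2.45 and 9.41 CPM and Abcg1 at 10.85, 12.11 and 30.9 CPM. With 1 line left out, Tdg-/- against Tdg+/+ gave -1.52 to -0.15 for Abca1 and -1.15 to -0.24 for Abcg1. Of 9 genes of the isoprenoid branches, which draw on the products of Idi1 and Fdps, 1 rose in Tdg-/- relative to Tdg+/- lines, beside 3.52% of all genes: Ggps1, geranylgeranyl diphosphate synthase, at 0.40 (adjusted p = 0.04998), which lies on chromosome 13 as Hmgcs1 and Idi1 do. In the comparisons with Tdg+/+ 0 of 9 passed, with Pggt1b (-0.53), Ggps1 (-0.27), Pdss1 (-0.19) and Pdss2 (-0.20) at the smallest p for Tdg+/- and Fnta (0.31), Coq2 (0.31), Ggps1 (0.17) and Dhdds (0.15) for Tdg-/-. Each of these calls beyond the 7 genes was lost in 5 or 6 of the 7 fits of Tdg-/- against Tdg+/- lines with 1 line left out. A transcript length offset also ended those of Abca1, Abcg1, Nr1h2, Acly, Fads1 and Ggps1, and left those of Msmo1, Srebf1, Rnf145, Fasn and Me1. Nr1h2 was also lost with RLE size factors, without a filter and with protein-coding transcripts (adjusted p = 0.0513, 0.0548 and 0.0505). Ggps1 was lost without a filter (edgeR adjusted p = 0.07765). With all 10 lines in the fit, Abca1 and Abcg1 were lost (edgeR adjusted p = 0.0741 and 0.165). A replicate block ended every one of these calls beyond the 7 genes, at edgeR adjusted p of 0.151 to 0.218.

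The counts of 0 in these lists depend on the tool and the lines. For Tdg+/- against Tdg+/+ lines DESeq2 called Msmo1 and Hsd17b7 among the 13 sterol enzymes, Stard3 among the 7 uptake genes, Rnf145 among the 10 SREBP genes, Acly and Fasn among the 15 fatty acid genes, and 0 in the LXR and isoprenoid lists. At an unadjusted p under 0.05 edgeR counted 2 uptake, 3 SREBP, 5 fatty acid, 1 LXR and 1 isoprenoid gene, beside 17% of all genes in either direction. With 3 surrogate variables, which called 26.8% of all genes and left 1 residual degree of freedom, 8 of 13 sterol enzymes were called (7 lower). That fit also called 2 of 7 uptake, 4 of 10 SREBP and 9 of 15 fatty acid genes. Of the LXR and isoprenoid lists it called 2 of 8 and 2 of 9 genes. For Tdg-/- against Tdg+/+ lines DESeq2 called 0 genes of any list, beside 0.668% of all genes, and edgeR counted 1 sterol enzyme, 0 uptake, 1 SREBP, 1 fatty acid, 4 LXR and 1 isoprenoid gene at an unadjusted p under 0.05, beside 15.9% of all genes. Without Tdg-/- line 1, when 22.1% of all genes were called, 2 of 13 sterol enzymes (Ebp higher, Hsd17b7 lower), 2 uptake genes (Npc2 higher, Npc1 lower), 3 SREBP, 5 fatty acid, 1 LXR and 2 isoprenoid genes were called. For Tdg-/- against Tdg+/- lines DESeq2 called 5 of 13 sterol enzymes (Acat2, Cyp51, Msmo1, Nsdhl and Sc5d, all higher) and 4 of 7 uptake genes (Npc2 higher, Lipa, Npc1 and Stard3 lower), beside 24% of all genes, and at an unadjusted p under 0.05 edgeR counted 4 uptake genes, beside 35.2% of all genes.

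Over the 10 lines the 7 genes moved together only in part. Among 21 pairs, Pearson's r of log2 CPM ran from -0.47 (Idi1 with Fdps) to 0.76 (Sqle with Lss), with a median of 0.39 and 16 pairs above 0. No pair passed a Benjamini-Hochberg adjustment of the permutation p of r over the 21 pairs. Idi1 and Fdft1 passed it by rank, with Spearman's rho of 0.88 (permutation p = 0.00152, adjusted p = 0.0319), while Pearson's r was 0.74 (permutation p = 0.0153, adjusted p = 0.149). It was 0.80 without the 2 lines farthest from the median of Idi1, and 0.78 after each genotype's mean was taken out. For Sqle with Lss r was 0.76 (permutation p = 0.0122, adjusted p = 0.149) and rho 0.72 (permutation p = 0.0240, adjusted p = 0.126), with r of 0.70 without the 2 farthest lines and 0.79 within genotypes. For Hmgcs1 with Idi1 r was 0.67 (permutation p = 0.0354, adjusted p = 0.149) and rho 0.76 (permutation p = 0.0152, adjusted p = 0.121), but r was 0.50 without the 2 farthest lines and 0.23 within genotypes. Fdps stood aside from the others except Lss (r = 0.68, adjusted p = 0.149, rho 0.61, 0.52 without the 2 farthest lines).

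The mean pattern of the 7 genes, each centred over the lines, was matched with every gene at 5 CPM or more on average. Across the 10 lines the closest of the genes outside the group were Ehmt1 (r = 0.90), Daam1 (0.89), Dctn4 (0.88), Me2 (0.88), Tti2 (0.87), 8030462N17Rik (0.87), Gm13034 (0.87), Dync1li1 (0.86), Ube2cbp (0.86) and Myo5a (0.86), chosen as the top of 9636 genes and given as a description. Within the group, where the mean includes the gene itself, r was 0.87 for Sqle, 0.37 for Insig1 and 0.00 for Fdps. Of the 13 further enzymes, Cyp51 (0.82) and Hsd17b7 (0.78) were closest, at ranks 45 and 84.

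Most genes had 1 dominant transcript, and Sqle was split between a pair. The main transcript carried 88.5% to 95.4% of the reads of Hmgcs1, 87.8% to 96.1% of those of Fdps, 91.2% to 93.2% of those of Insig1 and 81.9% to 86.6% of those of Fdft1. It carried 64.0% to 80.9% for Idi1 and 54.1% to 69.2% for Lss. Sqle had 2 protein-coding transcripts with most of its reads, of 2758 and 2636 bases. The shorter, ENSMUST00000100640, took 35.4%, 29.1%, 36.2% and 35.5% of Sqle reads in the Tdg-/- lines, 30.5%, 26.3% and 8.28% in the Tdg+/- lines, and 33.0%, 40.2% and 53.5% in the Tdg+/+ lines. All Tdg+/- lines lay below all Tdg+/+ lines, with Tdg+/- line 3 far below the rest, and 1 of the 3 Tdg+/- lines (line 1) lay among the Tdg-/- values. The transcripts overlap, so their split is an estimate by Salmon and was not tested. The sum over transcripts did not separate the genotypes.

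**Figure D4:**
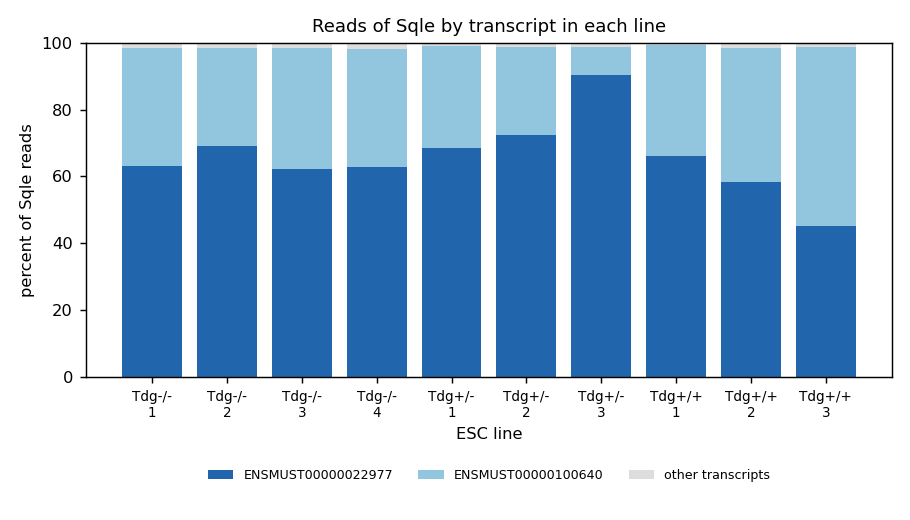
Percent of Sqle reads (vertical axis, 0 to 100) that Salmon gave to each of the 2 main transcripts and to the others, in each Tdg-/-, Tdg+/- and Tdg+/+ line. The share of ENSMUST00000100640 was 8.28% in Tdg+/- line 3 and 26.3% to 53.5% in the other 9 lines.

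Reads from transcripts with a retained intron were a large part of Lss and a smaller part of the other genes. They made up 29.8% to 45.8% of Lss reads and 5.39% to 21% of Idi1 reads, 6.78% to 8.76% of Insig1 reads, but 0.29% to 0.60% of Hmgcs1 reads and 0% of Fdft1 reads. The libraries were made from total RNA after ribosomal depletion, which also keeps unspliced RNA. With protein-coding transcripts alone, Hmgcs1 was higher by 0.71 in Tdg-/- than in Tdg+/- lines (adjusted p = 0.0295) and Idi1 by 0.49, no longer past the threshold (adjusted p = 0.0581).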

How the data were processed

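RNA of 10 male mouse ESC lines was analysed. Total RNA depleted of ribosomal RNA went into strand-specific, single-end libraries, and the authors ran Salmon 0.8.1 against transcripts of GRCm39, per the study's methods. The deposited files hold, for each of 116357 transcripts, the estimated count that the authors obtained from Salmon, not normalized, and the authors' TPM, which divide by effective length and sum to a fixed total in each line.

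Estimated counts were summed per gene through an annotation of GRCm38 that paired 98.97% of transcripts, and rounded. It gave names and chromosomes only. Transcripts left unpaired held 0.472% to 0.499% of reads and were left out. A gene was tested if any of the lines compared reached 20 reads, with edgeR 4.0.16 (TMM, quasi-likelihood, Benjamini-Hochberg over all genes, threshold 0.05) in R 4.3.3, using only the lines compared, and all 10 for the trend. The study's 3 surrogate variables (sva 3.50.0) were an alternative here, as were DESeq2 1.42.0, other filters and scalings, a replicate block, a transcript length offset and leaving out each line. The log2 CPM used for spread and correlation had a prior count of 2, and correlations used 100000 permutations. Tests were checked on simulated counts. Sequences came from RefSeq tables of GRCm38.p6. The members and lists were chosen with earlier results of these data known. Some genes of the lists are not reported here and were left out of the list counts and medians. Named genes were the 7 members, Tdg, each list's genes with an adjusted p under 0.05 and its 4 with the smallest p in each comparison with Tdg+/+, and the 10 most similar genes. Other genes are named only where a count of 5 or fewer, the pathway order or another tool singled them out after their values were seen.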

Additional observations from a re-analysis of the deposited data

Results flagged for a closer look

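Tdg-/- line 1 was far above the other 3 Tdg-/- lines in 4 values, each with a gap to the next line that exceeded the critical share of 0.829 of the range for 4 samples. Lss was at 87.16 CPM in that line (gap 0.864 of the range) and at 25.26 TPM (0.844), Sqle at 54.61 TPM (0.886) and Insig1 at 196.7 TPM (0.856). In CPM, Sqle and Insig1 did not pass the same limit. The 16 groups of 4 values looked at were the 7 genes and Tdg in CPM and TPM, and chance puts about 1 in 20 such groups past the limit. The 4 values come from 1 library, which also stood apart over all genes, so they are not independent of each other, and what sets the library apart was not tested.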

How the results depend on the processing

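The 28 fold changes of the 7 genes (4 tests) kept their direction and their side of the threshold in 193 of 224 recalculations with another setting and in 166 of 210 with 1 line left out. Of the rest, 22 and 31 changed sign, all for values that were not called. The limits are the number of lines, 3 or 4 a genotype, and the reads of Idi1. The cause of each change was not tested.

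In Tdg-/- against Tdg+/- lines 2 of the 7 genes were called. It was 1 (Hmgcs1) without a filter on low counts, with protein-coding transcripts only and with all 10 lines in the fit, and 0 with a transcript length offset. Leaving out 1 line gave 0 to 3, and 12 to 5659 calls over all genes. Over all genes DESeq2 called 3346 and the length offset 463, against 1261. In Tdg+/- against Tdg+/+ lines DESeq2 and 3 surrogate variables each called 1 of the 7, Hmgcs1, against 0. Over all genes the 4 calls became 269 without a filter, 744 with DESeq2, 0 with the length offset, 2 with protein-coding transcripts, 23 with all 10 lines and 3713 with 3 surrogate variables, and 0 to 207 with 1 line left out. In Tdg-/- against Tdg+/+ lines the 10 calls became 19 without a filter and 93 with DESeq2, and 3 to 3077 with 1 line left out. The 5 calls of the trend became 12 without a filter and 51 with DESeq2, and 2 to 11 with 1 line left out.

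The labels number the lines within each genotype but do not say whether the numbers pair lines. Between Tdg+/- and Tdg+/+, deviations of same-numbered lines from their genotype means correlated at 0.09, 0.084 and -0.097. They correlated at 0.163, 0.095 and 0.187 between Tdg-/- and Tdg+/+, and at 0.005, 0.053 and -0.206 between Tdg-/- and Tdg+/-. Of 6 lines each, 3, 5 and 1 correlated best with their own number, in the same order of pairs. These values differ between the pairs of genotypes and do not settle whether the numbers pair lines. With the number as a replicate block the calls over all genes were 6 for Tdg-/- against Tdg+/- (0 of the 7 genes), 5 for Tdg-/- and 33 for Tdg+/- against Tdg+/+. Under the block the log2 fold changes that changed sign were Lss at -0.0083 for Tdg+/- against Tdg+/+, Idi1 at 0.10, Sqle at 0.018 and Lss at 0.0026 for Tdg-/- against Tdg+/+, and Sqle at -0.0023 in the trend.

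Other sign changes were these. For Tdg+/- against Tdg+/+, the length offset gave Fdps -0.068, Npc2 0.13 and Nr1h2 -0.38, and 3 surrogate variables gave Lss -0.050. For Tdg-/- against Tdg+/+, Idi1 was 0.000164 with RLE size factors, 0.0079 at 100 reads or more and 0.000129 with DESeq2, Lss was 0.072 with the length offset, and with protein-coding transcripts Sqle was 0.0048 and Lss 0.043. For Tdg-/- against Tdg+/-, Insig1 was 0.012 with RLE, 0.0064 at 100 reads or more, 0.012 with DESeq2 and 0.016 with protein-coding transcripts, and the length offset gave Sqle -0.056 and Lss 0.0050. In the trend, the length offset gave Lss -0.035, and protein-coding transcripts gave Idi1 0.038 and Lss -0.0096.

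With 1 line left out, values that crossed 0 ranged, for Tdg+/- against Tdg+/+, from -0.021 to 0.24 for Fdps, -0.091 to 0.034 for Fdft1, -0.16 to 0.014 for Sqle, -0.089 to 0.14 for Lss and -0.0087 to 0.12 for Insig1. For Tdg-/- against Tdg+/+ they ranged from -0.22 to 0.35 for Idi1, -0.21 to 0.081 for Fdps, -0.088 to 0.040 for Sqle and -0.16 to 0.018 for Lss. For Tdg-/- against Tdg+/- they ranged from -0.049 to 0.12 for Sqle, -0.20 to 0.028 for Lss and -0.060 to 0.067 for Insig1. In the trend they ranged from -0.20 to 0.059 for Idi1, -0.0039 to 0.12 for Fdps and -0.012 to 0.059 for Sqle.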
